A study of Mus musculus with 11 samples.

Results

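The 5 subunits of the transcription factor NF-κB and 5 genes that restrain it or belong to its feedback were followed through hepatocyte RNA-seq of mice with and without Xbp1 in the liver. The 10 genes were chosen by name, as the subunit genes Rela, Nfkb1, Nfkb2, Rel and Relb, the inhibitor genes Nfkbia, Nfkbib and Nfkbie, and Tnfaip3 and Birc3, which encode ubiquitin enzymes of the TNF receptor pathway. They are 10 of 54232 genes in the count files and all 10 were among the 13303 genes that could be tested. The 11 libraries came from isolated hepatocytes of adult male C57BL/6 mice, with 3 libraries of Xbp1 fl/fl mice on chow, 2 of Xbp1 LKO mice on chow, 3 of Xbp1 fl/fl mice on a high fat sugar (HFS) diet and 3 of Xbp1 LKO mice on the HFS diet. All mice carried floxed Xbp1 alleles, and in Xbp1 LKO mice a Cre recombinase under the albumin promoter deleted Xbp1 in hepatocytes, so that other liver cells kept it. Feeding lasted up to 6 weeks, and a chow library was 1 mouse whereas an HFS library was a pool of 2 mice.

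NF-κB proteins work in pairs that are held in the cytoplasm by inhibitors of the IκB family. In the canonical branch, signals from TNF, interleukin-1 or Toll-like receptors activate the IκB kinase, the inhibitor is degraded, and pairs that hold RelA or c-Rel enter the nucleus. In the non-canonical branch, the kinase NIK lets the Nfkb2 product mature and pair with RelB. Several genes switched on by NF-κB, among them Nfkbia, Tnfaip3, Birc3, Nfkb2 and Relb, feed back on the pathway, and in hepatocytes the factor is known for protecting against cell death caused by TNF.

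The libraries held 19191032 to 23888401 counts. Xbp1 fell in Xbp1 LKO hepatocytes on both diets, with a log2 fold change of -0.87 ± 0.18 (SE, adjusted p = 0.018) on chow and -1.26 ± 0.16 (SE, adjusted p = 0.0025) on the HFS diet, as a count of the whole gene that does not set the deleted exon apart. P-values for genes are those of edgeR's quasi-likelihood test, adjusted after Benjamini and Hochberg over the 13303 genes, and a gene is said to have risen or fallen where its adjusted p was under 0.05. Expression is given as CPM, counts scaled to a common library size by TMM normalization, which keeps the few genes that take a large share of a library from setting the scale. On chow the albumin transcript alone took 8.06 to 10.9% of counts in Xbp1 fl/fl and 1.67 to 3.72% in Xbp1 LKO libraries, and with the HFS diet 5.88 to 7.42% and 3.33 to 5.40%. All 12 hepatocyte markers were present in every group, and their sum was 141400 to 179600 CPM in Xbp1 fl/fl against 44850 to 81470 CPM in Xbp1 LKO libraries on chow and 122500 to 146200 against 65340 to 97920 CPM with the HFS diet. All 12 had a negative log2 fold change between genotypes on each diet (median -0.59 and -0.63), of which 2 fell on chow, 1 on the HFS diet and 5 averaged over diets (DESeq2 called 4, 5 and 8). With library totals 3 of the 12 were positive on chow and 2 on the HFS diet (median -0.28 and -0.37). This shift moves with every genotype comparison of the 10 genes, and its part in them was not tested. All 13 macrophage and all 10 endothelial markers were detected as well, and 1 chow-fed Xbp1 fl/fl library and 1 HFS-fed Xbp1 LKO library stood apart with the highest macrophage markers. The same-group libraries came from separate mice or pools, and differences in a bulk library cannot tell fewer cells of a type from less RNA per cell.

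Xbp1 LKO and Xbp1 fl/fl hepatocytes differed in few of the 10 genes. On the HFS diet Relb rose, and on chow Birc3 fell, while the abundant subunit gene Rela and the inhibitor genes Nfkbia, Nfkbib and Nfkbie passed the test on neither diet. On chow, 1 of 10 genes passed the test, beside 4.75% of all genes tested (1.73% higher and 3.02% lower in Xbp1 LKO), and on the HFS diet it was again 1 of 10, beside 4.08% (1.92% higher and 2.16% lower). Averaged over both diets, Relb rose and Birc3 fell, 2 of 10 genes beside 11.9% of all genes (5.25% higher and 6.64% lower). The median log2 fold change of the 10 genes was -0.03 on chow and -0.02 on the HFS diet, beside 0.00 and 0.01 over all genes tested, with 5 genes positive and 5 negative on each diet. With 10 genes these are counts of single genes, and nothing is read from them about the 10 as a set. The split of calls depends on the scaling: with library totals in place of TMM, 89.5% of all calls on chow and 86.9% of those on the HFS diet were higher in Xbp1 LKO, against 36.4 and 47.2% with TMM.

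**Figure D1:**
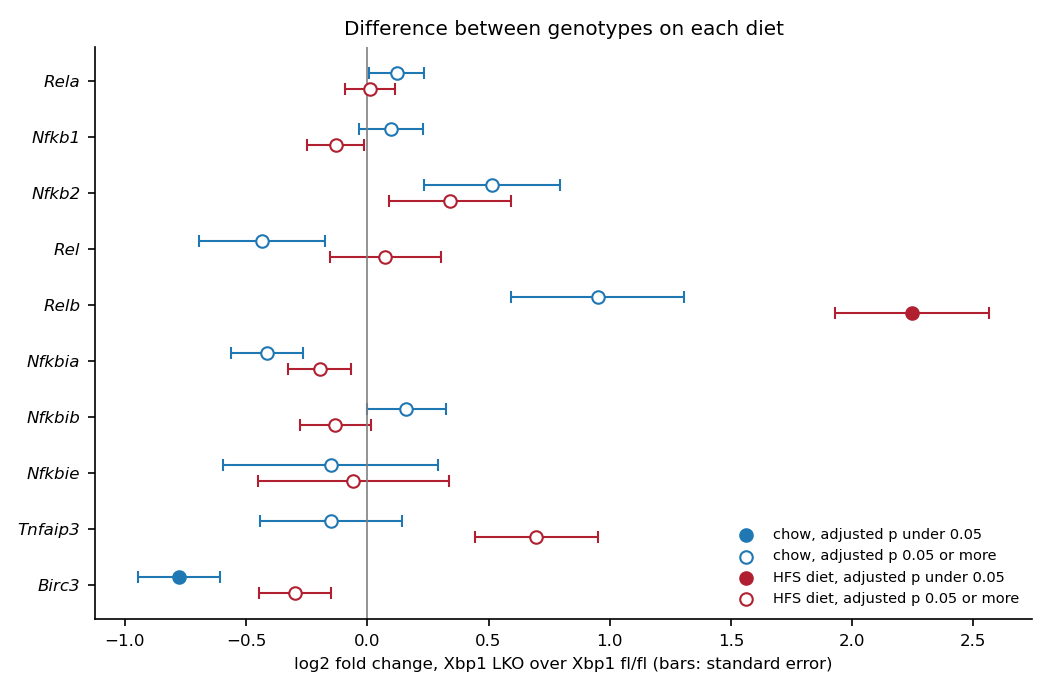
Log2 fold change of each gene in Xbp1 LKO over Xbp1 fl/fl hepatocytes on chow (blue) and on the HFS diet (red), with the standard error as bars and filled points where the adjusted p was under 0.05. Birc3 on chow (-0.78) and Relb on the HFS diet (2.25) are the filled points, and the points of Rela lie at 0.12 and 0.01.

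Levels between genes were compared per kilobase of exons. In chow-fed Xbp1 fl/fl hepatocytes Nfkbia was the most abundant of the 10 transcripts with 32.6 ± 4.35 CPM per kb (SD, n = 3), followed by Rela with 16.7 ± 1.66 and Nfkbib with 11.9 ± 2.33 CPM per kb. A step down came Birc3 (2.81 ± 0.15 CPM per kb), Nfkb1 (1.89 ± 0.29), Nfkb2 (1.71 ± 0.46) and Rel (1.12 ± 0.14), and the lowest were Nfkbie (0.65 ± 0.39), Tnfaip3 (0.48 ± 0.10) and Relb (0.13 ± 0.03), all means ± SD of 3 libraries. The lengths are those of all annotated exons of a gene, 12.1 kb for Nfkb1. On this scale Nfkbia lay above Rela in every group. Of the genes of c-Rel and RelB, subunits best known from lymphoid cells, Rel stood next below Nfkb2 in chow-fed Xbp1 fl/fl hepatocytes. Relb was the scarcest of the 10 in every group.

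**Figure D2:**
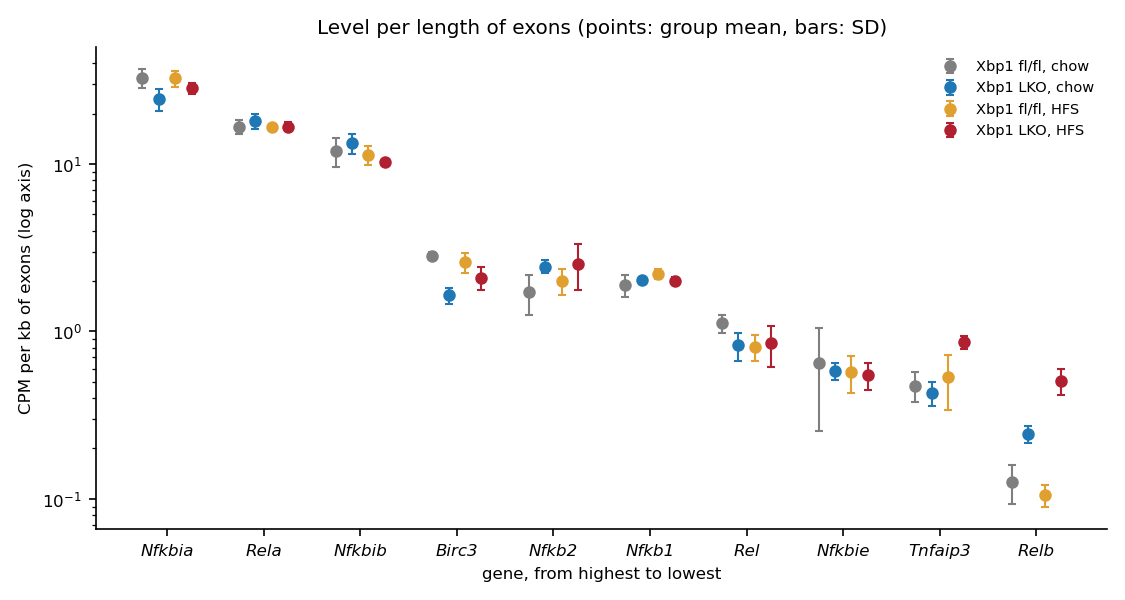
Mean CPM per kilobase of exons of each gene in the 4 groups, on a log axis, with the SD as bars and genes ordered from highest to lowest mean. Nfkbia, Rela and Nfkbib lie above 10 CPM per kb in every group, and Relb has the lowest mean of the 10 genes in all 4 groups, from 0.11 CPM per kb in HFS-fed Xbp1 fl/fl to 0.51 in HFS-fed Xbp1 LKO hepatocytes.

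Among the 5 subunit transcripts, Rela made up 77.6 ± 1.76% of the summed CPM per kb in chow-fed Xbp1 fl/fl, 76.5 ± 1.52% in chow-fed Xbp1 LKO, 76.5 ± 1.42% in HFS-fed Xbp1 fl/fl and 74.1 ± 3.09% in HFS-fed Xbp1 LKO hepatocytes (SD, n = 3, 2, 3 and 3). Relb was 0.59 ± 0.13%, 1.04 ± 0.20%, 0.48 ± 0.07% and 2.22 ± 0.20% of the sum in the same order. The Relb share was thus lowest where Xbp1 was intact and highest in HFS-fed Xbp1 LKO hepatocytes, and it stayed a small part of the subunit pool everywhere.

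Relb (ENSMUSG00000002983, chr7:19606217-19629438, minus strand of GRCm38) encodes the subunit of the non-canonical branch. Its level was 0.39, 0.64 and 0.45 CPM in Xbp1 fl/fl and 1.02 and 0.87 CPM in Xbp1 LKO libraries on chow. With the HFS diet it was 0.48, 0.36 and 0.39 CPM in Xbp1 fl/fl and 2.20, 2.12 and 1.57 CPM in Xbp1 LKO libraries. All 5 Xbp1 LKO libraries lay above all 6 Xbp1 fl/fl libraries, and the genotypes were apart in this way, in either direction, for 7.53% of all genes. These levels rest on 7 to 11 counts in each Xbp1 fl/fl library, 20 and 24 counts in the chow-fed and 41 to 57 counts in the HFS-fed Xbp1 LKO libraries.

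On the HFS diet Relb was 4.75-fold higher in Xbp1 LKO hepatocytes (log2 fold change 2.25 ± 0.32 SE, adjusted p = 0.0037). On chow it was 1.93-fold higher without passing the test (log2 fold change 0.95 ± 0.36 SE, adjusted p = 0.162), and averaged over diets the log2 fold change was 1.60 ± 0.24 (SE, adjusted p = 0.0015). Relb stood near the filter on low counts, being over it in 1 of 3 chow-fed and 0 of 3 HFS-fed Xbp1 fl/fl libraries and in all 5 Xbp1 LKO libraries, so that it was tested because of the group in which it was higher. With no filter on low counts the HFS difference had an adjusted p = 4.343e-05 (log2 fold change 2.26), in a fit that called 1438 of all genes against 543 in the main fit. It passed the test under all 20 alternative settings, with an adjusted p of at most 0.023, and these settings reuse the same libraries. The chow difference passed 1 of 20, when library totals replaced TMM.

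**Figure D3:**
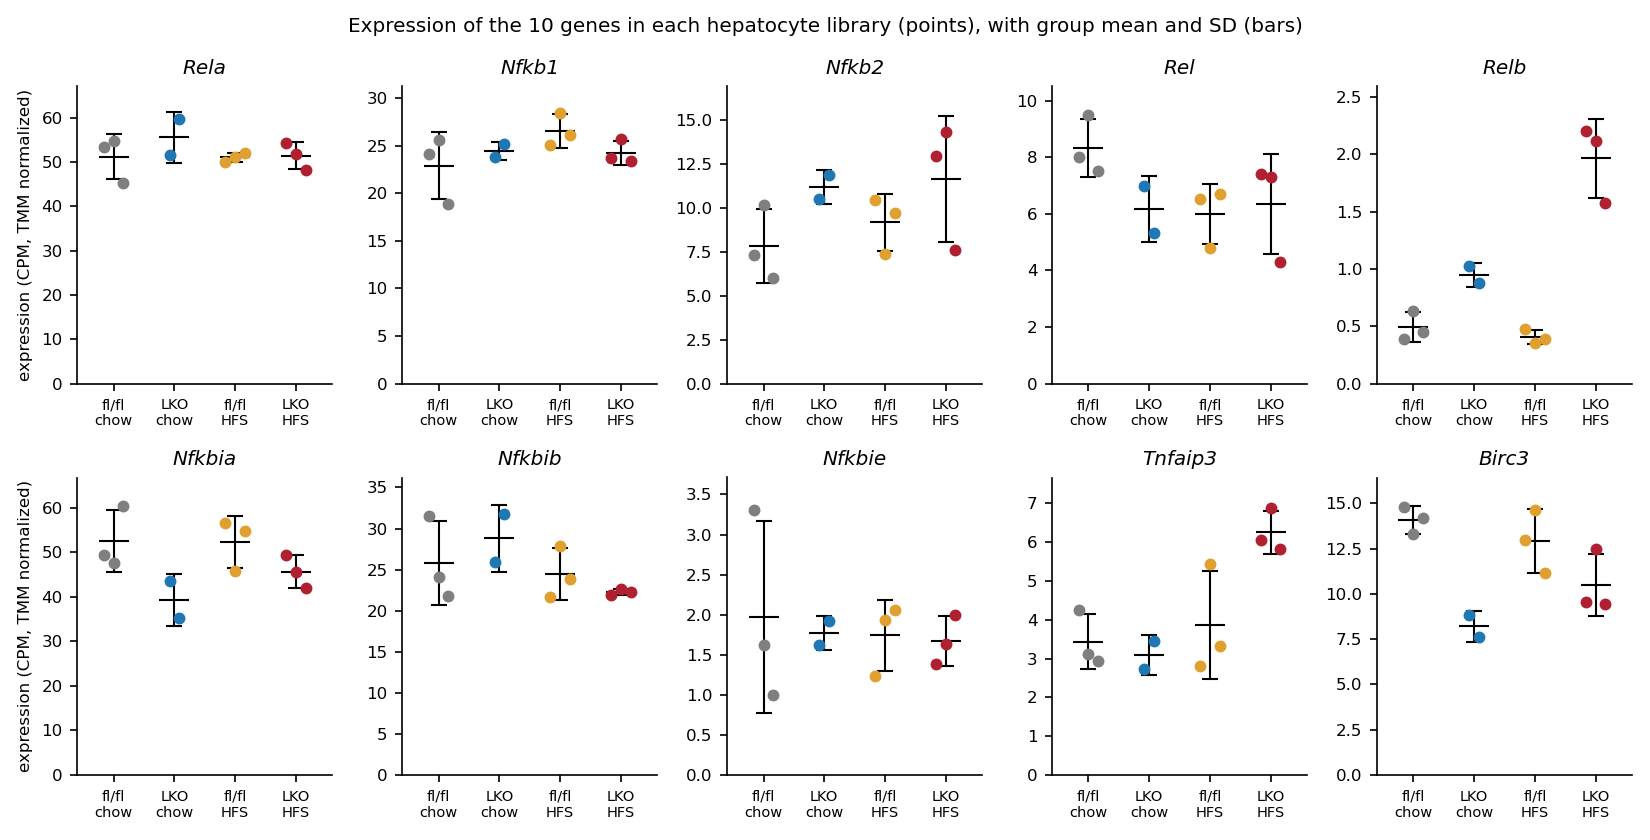
CPM of each gene (a panel for each gene, axes starting at 0) in every library, grouped as Xbp1 fl/fl and Xbp1 LKO on chow and on the HFS diet, with the group mean and SD as bars. In the Relb panel the 3 HFS-fed Xbp1 LKO libraries, 1.57 to 2.20 CPM, lie above all others, and in the Birc3 panel both Xbp1 LKO libraries on chow, 7.60 and 8.83 CPM, lie below all others.

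Nfkb2 (ENSMUSG00000025225, chr19:46304320-46312385, plus strand of GRCm38) encodes the precursor that pairs with RelB once it has been processed. Nfkb2, like several genes of the feedback, is known for NF-κB sites in its own promoter, and 1 of its RefSeq promoter windows is shown with the letters that match the κB consensus in capitals (5′ to 3′, chr19:46304487-46304786, plus strand, GRCm38.p6).
Nfkb2 promoter: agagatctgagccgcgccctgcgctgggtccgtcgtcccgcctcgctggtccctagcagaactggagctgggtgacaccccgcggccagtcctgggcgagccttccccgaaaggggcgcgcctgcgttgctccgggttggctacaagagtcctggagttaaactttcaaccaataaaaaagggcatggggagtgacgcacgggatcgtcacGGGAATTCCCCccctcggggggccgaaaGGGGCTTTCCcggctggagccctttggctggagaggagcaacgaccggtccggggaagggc
The capitals, of which the first run holds overlapping matches, begin 39 and 11 bases before the start site. Nfkb2 was at 7.34, 10.2 and 6.02 CPM in chow-fed Xbp1 fl/fl and 10.5 and 11.9 CPM in chow-fed Xbp1 LKO libraries, which did not overlap. With the HFS diet it was at 10.5, 7.38 and 9.70 CPM in Xbp1 fl/fl and 13, 14.4 and 7.59 CPM in Xbp1 LKO libraries. Library 3 of the HFS-fed Xbp1 LKO group lay inside the range of the control group. The log2 fold change was 0.52 ± 0.28 (SE, adjusted p = 0.352) on chow, 0.34 ± 0.25 (SE, adjusted p = 0.557) on the HFS diet and 0.43 ± 0.19 (SE, adjusted p = 0.178) averaged over diets, none past the threshold. Averaged over diets it passed with no filter on low counts (adjusted p = 0.023) and with library totals (0.011). Exons of Nfkb2 overlap those of Psd on the other strand, which had 289 counts in all libraries together.

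Rela (ENSMUSG00000024927, chr19:5637483-5648130, plus strand of GRCm38), the main activating subunit of the canonical branch, varied least. It was at 53.5, 54.7 and 45.4 CPM in chow-fed Xbp1 fl/fl, 51.6 and 59.7 CPM in chow-fed Xbp1 LKO, 49.9, 51.3 and 52.0 CPM in HFS-fed Xbp1 fl/fl and 54.3, 51.8 and 48.2 CPM in HFS-fed Xbp1 LKO libraries. The groups overlapped in every comparison, and the coefficient of variation over the 11 libraries was 7.15%, the lowest of the 10 genes. The log2 fold change between genotypes was 0.12 ± 0.11 (SE, adjusted p = 0.620) on chow and 0.01 ± 0.10 (SE, adjusted p = 0.979) on the HFS diet.

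Nfkb1 (ENSMUSG00000028163, chr3:135584655-135691547, minus strand of GRCm38) encodes the usual partner of RelA. It ranged from 18.9 to 25.5 CPM in chow-fed Xbp1 fl/fl, 23.8 to 25.1 in chow-fed Xbp1 LKO, 25.0 to 28.5 in HFS-fed Xbp1 fl/fl and 23.4 to 25.7 in HFS-fed Xbp1 LKO libraries. Its log2 fold change was 0.10 ± 0.13 (SE, adjusted p = 0.743) on chow and -0.13 ± 0.12 (SE, adjusted p = 0.642) on the HFS diet, and all groups that neighbour each other in mean level overlapped.

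Rel (ENSMUSG00000020275, chr11:23736847-23770970, minus strand of GRCm38) encodes c-Rel, best known from lymphocytes. The stretch of its promoter window with the match to the κB consensus is shown because overlapping matches stand there (5′ to 3′, chr11:23771036-23771076, minus strand, GRCm38.p6, capitals beginning 92 bases before the start site).
Rel promoter stretch: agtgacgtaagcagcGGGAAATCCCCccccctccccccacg
Rel was at 8.0, 9.48 and 7.52 CPM in chow-fed Xbp1 fl/fl and 7.0 and 5.33 CPM in chow-fed Xbp1 LKO libraries, and at 6.53, 4.79 and 6.71 CPM and 7.41, 7.29 and 4.29 CPM in the same genotypes on the HFS diet. The chow-fed Xbp1 fl/fl libraries were thus the highest and overlapped no other group. No comparison of Rel passed the test, with a log2 fold change of -0.43 ± 0.26 (SE, adjusted p = 0.401) between genotypes on chow and 0.07 ± 0.23 (SE, adjusted p = 0.922) on the HFS diet.

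Nfkbia (ENSMUSG00000021025, chr12:55489410-55492647, minus strand of GRCm38) encodes IκBα, the inhibitor that NF-κB itself induces to end a response. Its promoter window is shown because the match to the κB consensus, in capitals, sits close to the start site (5′ to 3′, chr12:55492598-55492897, minus strand, GRCm38.p6).
Nfkbia promoter: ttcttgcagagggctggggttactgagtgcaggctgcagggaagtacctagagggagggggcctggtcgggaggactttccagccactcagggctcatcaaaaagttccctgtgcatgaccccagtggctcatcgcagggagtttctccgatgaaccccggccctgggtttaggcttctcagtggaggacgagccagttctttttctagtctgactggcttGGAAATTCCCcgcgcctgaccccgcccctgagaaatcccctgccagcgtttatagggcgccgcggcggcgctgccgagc
The capitals begin 29 bases before the start site. Nfkbia was at 49.5, 47.5 and 60.5 CPM in chow-fed Xbp1 fl/fl and 43.5 and 35.3 CPM in chow-fed Xbp1 LKO libraries, which did not overlap. With the HFS diet it was at 56.5, 45.8 and 54.7 CPM in Xbp1 fl/fl and 49.3, 45.7 and 42.0 CPM in Xbp1 LKO libraries, which did. The log2 fold change was -0.41 ± 0.15 (SE, adjusted p = 0.145) on chow, -0.20 ± 0.13 (SE, adjusted p = 0.505) on the HFS diet and -0.31 ± 0.10 (SE, adjusted p = 0.070) averaged over diets. The averaged difference passed with DESeq2 (adjusted p = 0.0496) and without chow-fed Xbp1 LKO library 1 (0.046), and with library totals it was -0.02 (0.890). The CPM per kb of Nfkbia was 1.99 ± 0.48 times that of Rela in chow-fed Xbp1 fl/fl (SD, n = 3), 1.37 ± 0.34 in chow-fed Xbp1 LKO (SD, n = 2), 1.96 ± 0.23 in HFS-fed Xbp1 fl/fl and 1.69 ± 0.04 in HFS-fed Xbp1 LKO libraries (SD, n = 3 each).

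Nfkbib and Nfkbie encode IκBβ and IκBε, which bind overlapping sets of NF-κB pairs. Nfkbib (ENSMUSG00000030595, chr7:28758251-28767512, minus strand of GRCm38) was at 21.8 to 31.5 CPM in chow-fed Xbp1 fl/fl, 25.9 and 31.7 in chow-fed Xbp1 LKO, 21.6 to 27.9 in HFS-fed Xbp1 fl/fl and 22 to 22.7 in HFS-fed Xbp1 LKO libraries. Its log2 fold change between genotypes was 0.16 ± 0.16 (SE, adjusted p = 0.649) on chow and -0.13 ± 0.15 (SE, adjusted p = 0.722) on the HFS diet. Exons of Nfkbib overlap those of Sirt2 on the other strand, which had 15955 counts in all, and whether counting used strand is not given in the sources used here, so that its level is uncertain.

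Nfkbie (ENSMUSG00000023947, chr17:45555703-45563169, plus strand of GRCm38) was scarce, at 3.31, 1.62 and 1.00 CPM in chow-fed Xbp1 fl/fl, 1.62 and 1.92 CPM in chow-fed Xbp1 LKO, 1.24, 1.93 and 2.06 CPM in HFS-fed Xbp1 fl/fl and 1.38, 1.64 and 1.99 CPM in HFS-fed Xbp1 LKO libraries. Its promoter match lies 106 bases before the start site (5′ to 3′, chr17:45555579-45555618, plus strand, GRCm38.p6, κB match in capitals) and is shown for comparison with that of Nfkbia.
Nfkbie promoter stretch: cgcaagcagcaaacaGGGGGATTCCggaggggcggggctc
The groups overlapped, most widely spread in Xbp1 fl/fl on chow, and the log2 fold change was -0.15 ± 0.44 (SE, adjusted p = 0.895) on chow and -0.06 ± 0.39 (SE, adjusted p = 0.968) on the HFS diet. The value on chow turned positive without the library with 3.31 CPM (0.44, adjusted p = 0.569). That library also had the most macrophage markers of its group, 94.3 CPM against 22.1 and 22.6 CPM. The part of these cells in the Nfkbie values was not tested.

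Tnfaip3 (ENSMUSG00000019850, chr10:19000910-19015657, minus strand of GRCm38) encodes a ubiquitin-editing enzyme that shuts off signalling from TNF and Toll-like receptors. It was at 4.25, 3.12 and 2.94 CPM in chow-fed Xbp1 fl/fl and 2.73 and 3.45 CPM in chow-fed Xbp1 LKO libraries. With the HFS diet it was at 2.81, 5.45 and 3.33 CPM in Xbp1 fl/fl and 6.07, 6.88 and 5.83 CPM in Xbp1 LKO libraries, the latter above all 8 others. The log2 fold change between genotypes on the HFS diet was 0.70 ± 0.25 (SE, adjusted p = 0.167) and on chow -0.15 ± 0.29 (SE, adjusted p = 0.831), neither past the threshold. With library totals in place of TMM the HFS difference passed it (0.96, adjusted p = 0.039).
The stretches of the Tnfaip3 promoter window with matches to the κB consensus (5′ to 3′, minus strand, GRCm38.p6, capitals beginning 125 and 12 bases before the start site) are shown since this gene holds separate matches in the window, at chr10:19015511-19015550 and chr10:19015398-19015437.
Tnfaip3 upstream stretch: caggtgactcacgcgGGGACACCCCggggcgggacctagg
Tnfaip3 stretch at the start: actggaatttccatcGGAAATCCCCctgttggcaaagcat

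Birc3 (ENSMUSG00000032000, chr9:7848699-7873186, minus strand of GRCm38) encodes a ubiquitin ligase of the TNF receptor complex that blocks cell death and keeps NIK low. It was at 14.8, 13.3 and 14.2 CPM in chow-fed Xbp1 fl/fl and 8.83 and 7.60 CPM in chow-fed Xbp1 LKO libraries, which did not overlap. With the HFS diet it was at 13, 14.7 and 11.2 CPM in Xbp1 fl/fl and 9.57, 12.5 and 9.47 CPM in Xbp1 LKO libraries, where Xbp1 LKO library 2 lay within the range of the controls. On chow Birc3 fell by 0.78 on the log2 scale (SE 0.17, adjusted p = 0.026), a mean of 8.22 against 14.1 CPM. Its log2 fold change on the HFS diet was -0.30 ± 0.15 (SE, adjusted p = 0.333), and averaged over diets it was -0.54 ± 0.11 (SE, adjusted p = 0.0098).
The chow result was near the threshold. It passed in 14 of 20 alternative settings. It was lost without chow-fed Xbp1 fl/fl library 1 (adjusted p = 0.062) or 2 (0.054) and with library totals (0.087). It was also lost with only the compared groups in the fit (0.073) and without the 2 libraries highest in macrophage markers (0.075). Leaving out chow-fed Xbp1 LKO library 2 lost it too (log2 fold change -0.68), whereas leaving out library 1 did not (-0.89). Either fit leaves 1 library in that group. Library 2 had the lower hepatocyte marker sum of these 2 libraries, 44850 against 81470 CPM. The log2 fold change of Birc3 was always negative, from -0.89 to -0.46 over all settings. Its paralog Birc2, the closest relative among the ubiquitin ligases, had a log2 fold change of 0.02 ± 0.17 (SE, adjusted p = 0.961) on chow and -0.06 ± 0.15 (SE, adjusted p = 0.889) on the HFS diet.
The Birc3 promoter window is shown as the gene that fell, and it held no match to the κB consensus (5′ to 3′, chr9:7873121-7873420, minus strand, GRCm38.p6).
Birc3 promoter: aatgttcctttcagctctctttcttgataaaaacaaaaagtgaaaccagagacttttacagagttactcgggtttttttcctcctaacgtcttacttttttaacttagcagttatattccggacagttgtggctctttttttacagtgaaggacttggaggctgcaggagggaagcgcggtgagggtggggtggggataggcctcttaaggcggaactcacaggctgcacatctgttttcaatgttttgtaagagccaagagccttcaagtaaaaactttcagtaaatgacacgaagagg

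The κB consensus is a motif of 10 bases, searched by name on both strands in windows of 300 bases, 250 before to 50 after each RefSeq start site. Windows of 8 of the 10 genes were read, and those of Relb and Nfkb1 were not analysed here. A match stood in 5 of the 8, namely Nfkb2, Rel, Nfkbia, Nfkbie and Tnfaip3, and none in the windows of Rela, Nfkbib and Birc3, while 5.14% of the 27025 genes with windows had a match in at least 1 window. The match is a description of letters in these windows only.

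None of the 10 genes passed the test between diets. With intact Xbp1 the comparison of diets called 0 of 10 genes beside 0.428% of all genes, and DESeq2 called 0. An unadjusted p under 0.05 in edgeR was found for 0 of the 10, beside 1190 of all 13303 genes. In Xbp1 LKO hepatocytes 0 of 10 were called beside 0.0601%, and 0 by DESeq2. There 1683 of all 13303 genes had an unadjusted p under 0.05 in edgeR, and so did 3 of the 10. These 3 were Tnfaip3 (log2 fold change 1.02 ± 0.29 SE, adjusted p = 0.235), Relb (1.04 ± 0.33 SE, adjusted p = 0.253) and Nfkbib (-0.37 ± 0.16 SE, adjusted p = 0.369). Averaged over genotypes the count was 0 of 10 beside 1.1%, and DESeq2 called 0. Here 1 of the 10 had an unadjusted p under 0.05 in edgeR, beside 1968 of all 13303 genes. The largest difference was that of Tnfaip3 (0.59 ± 0.19 SE, adjusted p = 0.183). In edgeR's fit of all genes with no filter on low counts, Tnfaip3 in Xbp1 LKO hepatocytes passed the test (log2 fold change 1.01, adjusted p = 0.025). That fit called 722 of all genes in this comparison, against 8 in the main fit.

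The order of groups differed between genes. Relb descended from HFS-fed Xbp1 LKO to chow-fed Xbp1 LKO and then to both Xbp1 fl/fl groups, of which the last pair overlapped and the first steps did not. Birc3 was highest in both Xbp1 fl/fl groups, lower in HFS-fed Xbp1 LKO and lowest in chow-fed Xbp1 LKO hepatocytes, and only the last step was without overlap. The group that stood apart for Tnfaip3 was HFS-fed Xbp1 LKO, and that for Rel was chow-fed Xbp1 fl/fl. Groups did not overlap for 5 of the 10 genes between genotypes on chow (31.3% of all genes), 2 of 10 between genotypes on the HFS diet (26.1%), 1 of 10 between diets in Xbp1 fl/fl (13.7%) and 4 of 10 between diets in Xbp1 LKO hepatocytes (31.1%).

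Whether the genotype difference itself depended on diet was tested as an interaction. The interaction called 0 of 10 genes beside 0.0% of all genes in edgeR, where 816 genes had an unadjusted p under 0.05, and DESeq2 called 31 of all genes and 0 of the 10. Relb had the largest term, 1.30 ± 0.48 on the log2 scale (SE, unadjusted p = 0.021 in edgeR, adjusted p = 0.749). The terms of Tnfaip3 (0.85 ± 0.39 SE, adjusted p = 0.810), Rel (0.51 ± 0.35 SE, adjusted p = 0.870) and Birc3 (0.48 ± 0.22 SE, adjusted p = 0.812) did not pass either. A larger genotype difference of Relb on the HFS diet than on chow, or of Birc3 on chow than on the HFS diet, is therefore not shown by these libraries.

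Markers of other liver cells were read beside Relb, Tnfaip3 and Birc3, since macrophages and dendritic cells express NF-κB genes too. The 13 macrophage markers summed to 22.1 to 94.3 CPM in chow-fed Xbp1 fl/fl, 26.1 to 37.5 in chow-fed Xbp1 LKO, 42.8 to 61.1 in HFS-fed Xbp1 fl/fl and 60.3 to 107.7 CPM in HFS-fed Xbp1 LKO libraries, with none of the 13 at 0 in any group. Between genotypes on the HFS diet all 13 had a positive log2 fold change in Xbp1 LKO hepatocytes (median 0.62), of which edgeR called 0, DESeq2 0, and 1 had an unadjusted p under 0.05. On chow 1 of 13 was positive (median -0.47, none called by edgeR or DESeq2 and none at an unadjusted p under 0.05), and between diets in Xbp1 LKO hepatocytes, where Tnfaip3 and Relb had their largest diet differences, all 13 were positive (median 1.30, with 0 called by edgeR, 5 at an unadjusted p under 0.05 and 0 called by DESeq2). The part of these cells in the Relb, Tnfaip3 and Birc3 values was not tested. The library with 94.3 CPM of macrophage markers came from a chow-fed Xbp1 fl/fl mouse. It had the lowest Relb of its group (0.39 CPM) and the highest Tnfaip3 (4.25 CPM) and Birc3 (14.8 CPM). The one with 107.7 CPM came from HFS-fed Xbp1 LKO mice. Its Relb (1.57 CPM), Tnfaip3 (5.83 CPM) and Birc3 (9.47 CPM) were the lowest of its group. Without both libraries, Relb on the HFS diet had a log2 fold change of 2.39 (adjusted p = 0.011). The libraries that stayed in held macrophage markers too, so this fit is no test of the part of these cells.
The 10 markers of dendritic cells, listed after the Relb values were known, summed to 3.41 to 7.01, 2.80 to 4.44, 4.33 to 6.32 and 5.32 to 5.66 CPM in the 4 groups in the order above. HFS-fed Xbp1 LKO libraries lay inside the range of HFS-fed Xbp1 fl/fl and above that of chow-fed Xbp1 LKO libraries. Of 5 that could be tested, 2 were positive between genotypes on the HFS diet (median -0.20) and 5 between diets in Xbp1 LKO hepatocytes (median 0.68). There edgeR and DESeq2 called 0, and the part of dendritic cells in the Relb and Tnfaip3 values was not tested. Of the dendritic markers, Flt3 was at 0 in all Xbp1 fl/fl libraries on chow, Flt3, Ccr7 and Ccl22 in those on the HFS diet and Ccr7 in HFS-fed Xbp1 LKO libraries. The 10 endothelial markers summed to 41.2 to 101.5, 25.6 to 32.4, 82.1 to 136.6 and 68.6 to 104.9 CPM in the same order, the lowest sums standing in the group in which Birc3 fell. All 10 endothelial markers had a negative log2 fold change between genotypes on chow (median -1.34), of which edgeR called 0 and DESeq2 6, and 8 had an unadjusted p under 0.05. Averaged over diets, where Birc3 fell as well, all 10 were negative (median -0.87), Flt4 and Lyve1 fell, 9 had an unadjusted p under 0.05 and DESeq2 called 6.
The 8 stellate cell markers summed to 11 to 32.8, 7.04 to 7.69, 18.6 to 31.3 and 22.9 to 48.6 CPM in the same order of groups, and the 6 cholangiocyte markers to 8.03 to 12.3, 4.81 to 5.59, 3.38 to 12.7 and 10.6 to 16.3 CPM. Acta2 was the stellate marker at 0 in both Xbp1 fl/fl groups, and 1 to 2 cholangiocyte markers were at 0 in those groups. Between genotypes on chow the 6 stellate markers that could be tested were all negative (median -1.24, with 0 called by edgeR, 3 at an unadjusted p under 0.05 and 2 called by DESeq2; with library totals 1 was positive). Of the 2 tested cholangiocyte markers, Sox9 fell on chow and averaged over diets. In Xbp1 LKO hepatocytes, the HFS diet against chow gave positive values for all 10 endothelial markers (median 1.62, 0 called by edgeR, 10 at an unadjusted p under 0.05 and 9 called by DESeq2) and all 6 stellate markers (median 2.27, 0 called by edgeR, 4 at an unadjusted p under 0.05 and 3 called by DESeq2), beside the diet values of Tnfaip3 and Relb. The part of endothelial, stellate and biliary cells in the Birc3, Tnfaip3 and Relb values was not tested. Neutrophil markers summed to 0.10 to 0.39, 0.17 to 1.09, 0.24 to 1.58 and 0.57 to 3.91 CPM in the same order of groups. B and T lymphocyte markers summed to at most 3.43 CPM in any library. Ly6g, Cxcr2 and Retnlg were at 0 in all groups but HFS-fed Xbp1 LKO. The 2 tested neutrophil markers were positive between genotypes on chow (median 2.23) and on the HFS diet (median 1.78), with 0 called by edgeR or DESeq2. The part of these cells in the Relb values was not tested.

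**Figure D4:**
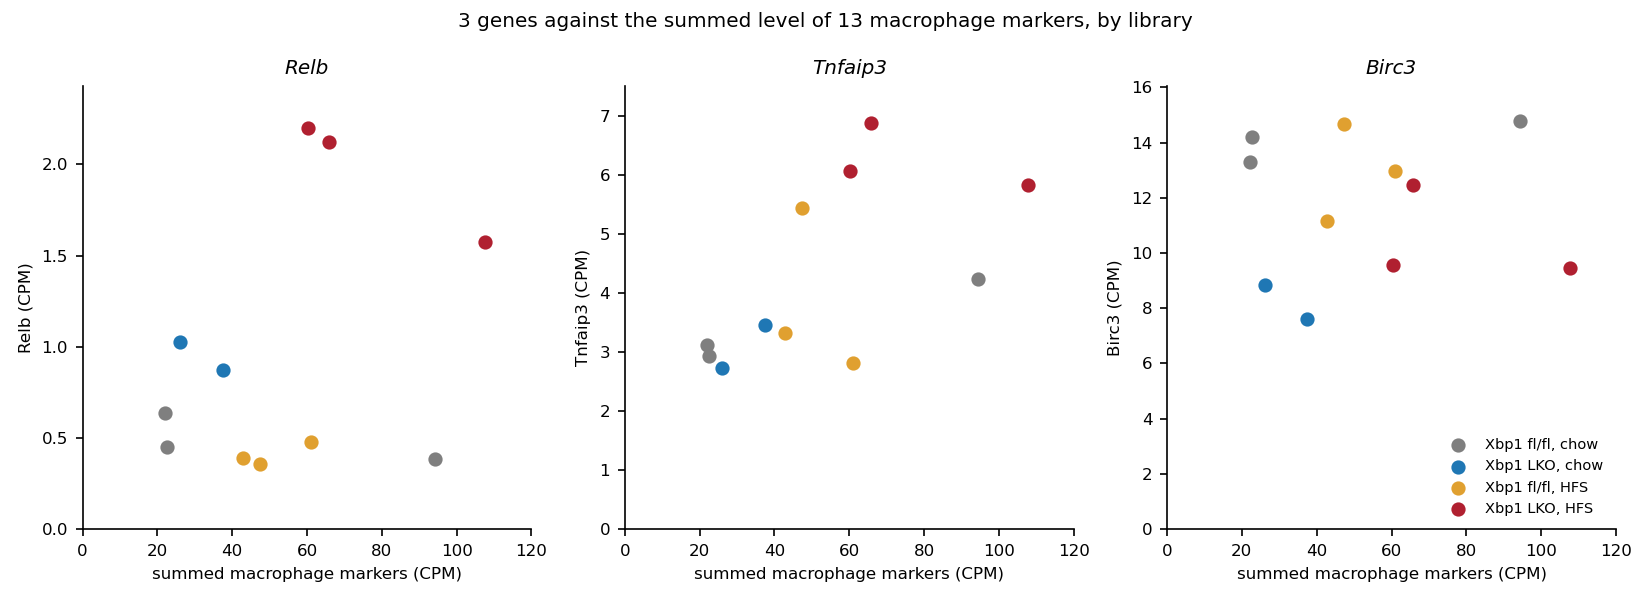
CPM of Relb, Tnfaip3 and Birc3 (vertical axes) against the summed CPM of 13 macrophage markers (horizontal axis), with 1 point per library coloured by group. The chow-fed Xbp1 fl/fl library at 94.3 CPM of markers has 0.39 CPM of Relb, 4.25 CPM of Tnfaip3 and 14.8 CPM of Birc3. The 3 HFS-fed Xbp1 LKO libraries at 60.3 to 107.7 CPM have 1.57 to 2.20 CPM of Relb. The part of macrophages in these values was not tested.

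The pathway around the 10 genes was read from 94 further genes in 5 lists, of which 71 could be tested. Between genotypes 4 of 71 passed on chow (5.63%), 4 of 71 on the HFS diet (5.63%) and 9 of 71 averaged over diets (12.7%), close to the shares of all genes tested. The median log2 fold change of the 71 was 0.05 on chow and 0.08 on the HFS diet, beside 0.00 and 0.01 over all genes.

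Of the 9 ligands, the proteins that switch the pathway on, 7 were too low to test. Tnf had at most 3 counts in any library and Il1b at most 7, while Tnfsf12 and Il1a were tested and passed in no comparison.

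Among 19 tested receptors and adaptors, Il1rap, the shared chain of the interleukin-1 receptor, fell on both diets. It was at 170.1, 190.0 and 229.2 CPM in chow-fed Xbp1 fl/fl and 124.0 and 89.4 CPM in chow-fed Xbp1 LKO libraries (log2 fold change -0.88 ± 0.18 SE, adjusted p = 0.022). With the HFS diet it was at 189.8 to 226.9 CPM against 107.9 to 140.4 CPM (log2 fold change -0.72 ± 0.16 SE, adjusted p = 0.031). The chow call held in 17 of 20 alternative settings and was lost with only the compared groups in the fit and without Xbp1 fl/fl library 2 or Xbp1 LKO library 2 (adjusted p up to 0.235), and the HFS call held in 12 of 20 and was lost with library totals, with the replicate block in the other numbering, without both macrophage-rich libraries, and without any of the 3 Xbp1 fl/fl libraries or Xbp1 LKO library 2 or 3 (up to 0.145). Irak1, a kinase of the same receptor, fell only when averaged over diets (-0.28 ± 0.07 SE, adjusted p = 0.027), held in 8 of 19 settings, and under library totals its value was 0.01 (adjusted p = 0.898). Il1r1 (-0.86 ± 0.23 SE, adjusted p = 0.058 on the HFS diet), Tlr5 (0.75 ± 0.25 SE, adjusted p = 0.124 on chow) and Tnfrsf12a (0.71 ± 0.26 SE, adjusted p = 0.148 on chow) came next without passing.

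Of 24 tested signalling kinases, ubiquitin ligases and deubiquitinases, 2 fell on both diets. Ikbke, an IκB kinase relative that acts in interferon and inflammatory signalling, was at 34.2, 29.3 and 27.9 CPM in chow-fed Xbp1 fl/fl and 6.53 and 7.43 CPM in chow-fed Xbp1 LKO libraries, and at 25.5, 36 and 26.5 CPM and 16.3, 7.21 and 9.93 CPM on the HFS diet. Its Xbp1 LKO libraries lay below all controls, and 7.53% of all genes were apart by genotype in either direction. The log2 fold change of Ikbke was -2.13 ± 0.30 (SE, adjusted p = 0.0045) on chow and -1.40 ± 0.25 (SE, adjusted p = 0.010) on the HFS diet. The chow call of Ikbke was lost without Xbp1 LKO library 2 (adjusted p = 0.0501), and that on the HFS diet without Xbp1 LKO library 3, alone or together with the chow library highest in macrophage markers (adjusted p up to 0.063). Sharpin, a subunit of the linear ubiquitin ligase that joins the TNF receptor complex, was at 28.2 to 35.8 CPM against 22.6 and 23.8 CPM on chow (log2 fold change -0.50 ± 0.12 SE, adjusted p = 0.036) and at 32.8 to 36 against 20.2 to 22.8 CPM on the HFS diet (-0.68 ± 0.11 SE, adjusted p = 0.0056). The Sharpin call on chow held in 7 of 20 alternative settings, being lost, among others, with either replicate block, without either Xbp1 LKO library and with library totals (adjusted p up to 0.303), and that on the HFS diet in 20 of 20.
Map3k14 encodes NIK, the kinase of the branch that ends in RelB. It was at 3.70, 4.45 and 3.24 CPM in chow-fed Xbp1 fl/fl and 6.91 and 5.16 CPM in chow-fed Xbp1 LKO libraries. With the HFS diet it was at 4.62, 3.87 and 3.72 CPM and 6.15, 5.76 and 8.55 CPM. Map3k14 was higher in every Xbp1 LKO library than in every control, and 7.53% of all genes were apart by genotype in either direction. It rose when averaged over diets (0.71 ± 0.16 SE, adjusted p = 0.014) and not on chow (0.67 ± 0.24 SE, adjusted p = 0.142) or the HFS diet (0.74 ± 0.21 SE, adjusted p = 0.078) alone, and the call held in 17 of 19 settings, being lost without chow-fed Xbp1 LKO library 1 and without the 2 libraries highest in macrophage markers (adjusted p up to 0.060). For the subunits of the IκB kinase, Chuk had a log2 fold change of -0.19 ± 0.14 on chow and 0.09 ± 0.13 on the HFS diet, Ikbkb of -0.02 ± 0.12 and -0.09 ± 0.10, and Ikbkg of -0.11 ± 0.21 and 0.18 ± 0.19 (SE), none past the threshold.

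Of the 3 tested other IκB family genes, Bcl3 (0.34 ± 0.17 SE, adjusted p = 0.290 on chow), Nfkbiz (0.31 ± 0.20 SE, adjusted p = 0.482 on the HFS diet) and Nfkbil1 (0.23 ± 0.23 SE, adjusted p = 0.638 on chow), none passed in any comparison.

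Of 23 tested NF-κB target genes, 1 rose on chow and none fell between genotypes. It was Myc, a growth regulator, at 4.97 to 6.57 CPM in Xbp1 fl/fl and 53.2 and 42.6 CPM in Xbp1 LKO libraries (log2 fold change 3.02 ± 0.77 SE, adjusted p = 0.049), a call held in 8 of 20 alternative settings and lost, among others, with either replicate block and when any of the 5 chow libraries was left out (adjusted p up to 0.181). Averaged over diets, the adhesion molecule Icam1 (1.35 ± 0.31 SE, adjusted p = 0.015), Myc (1.82 ± 0.52 SE, adjusted p = 0.043) and the acute phase protein Saa3 (2.69 ± 0.79 SE, adjusted p = 0.049) rose. On the HFS diet alone Myc had a log2 fold change of 0.625 ± 0.70 (SE, adjusted p = 0.726), and there the genotypes overlapped. Averaged over diets, the Myc call held in 8 of 19 settings and was lost with either replicate block, without the 2 macrophage-rich libraries, without any of the 5 chow libraries, and without HFS-fed Xbp1 fl/fl library 1 or 3 or Xbp1 LKO library 1 (adjusted p up to 0.111), and that of Saa3 held in 7 of 19.
The Saa3 value was carried by 1 library, since chow-fed Xbp1 LKO library 2 had 294.5 CPM and library 1 had 10.1 CPM, and without library 2 the log2 fold change was 0.72 (adjusted p = 0.661). Without that library Icam1 averaged over diets did not pass either (adjusted p = 0.097). Cxcl1, a chemokine, had a log2 fold change of -1.02 ± 0.33 (SE, adjusted p = 0.111) on chow, and Cxcl10 of 1.16 ± 0.49 (SE, adjusted p = 0.253) on the HFS diet. Between diets Gadd45b, a stress gene that NF-κB induces, fell on the HFS diet averaged over genotypes (-2.0 on the log2 scale, adjusted p = 0.029), and no other gene of the 5 lists passed. This call held in 11 of 19 alternative settings and was lost without chow-fed Xbp1 fl/fl library 3, chow-fed Xbp1 LKO library 2, HFS-fed Xbp1 fl/fl library 1 or 3, HFS-fed Xbp1 LKO library 1 or 2, both macrophage-rich libraries, or with the replicate block in the other numbering (adjusted p up to 0.132).

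**Figure D5:**
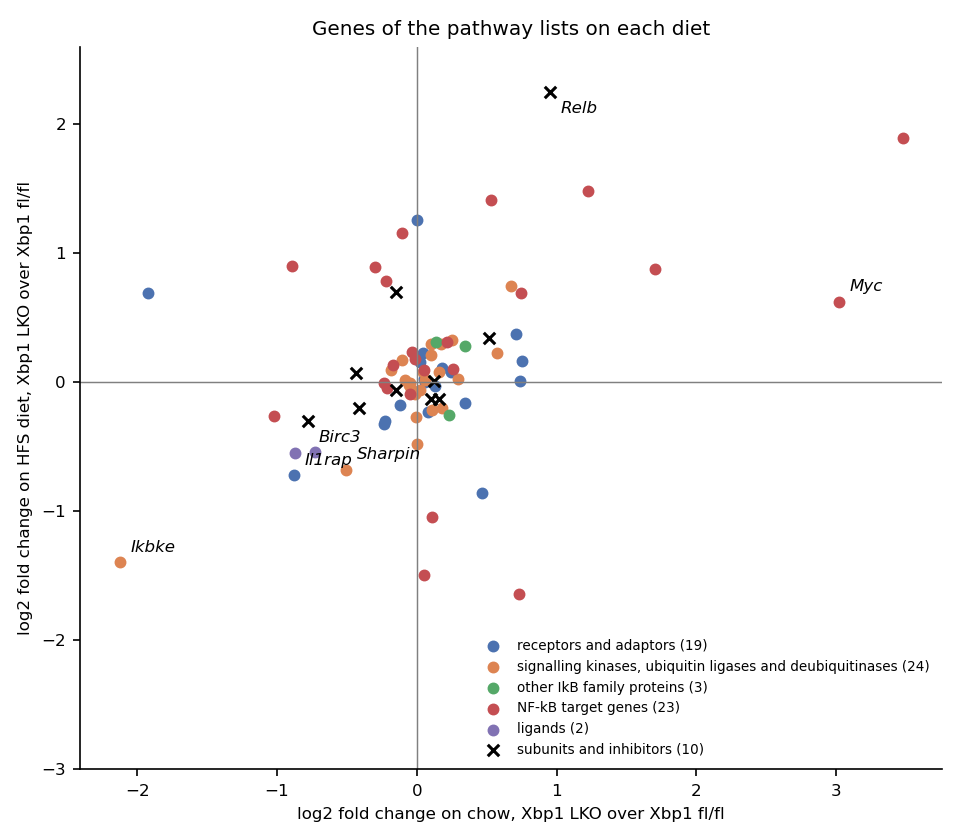
Log2 fold change in Xbp1 LKO over Xbp1 fl/fl hepatocytes on chow (horizontal axis) and on the HFS diet (vertical axis) for the 71 tested genes of the pathway lists, coloured by list, and for the 10 subunit and inhibitor genes (crosses). Names are given to Il1rap, Ikbke, Sharpin, Myc, Relb and Birc3: Ikbke lies at -2.13 and -1.40, Myc at 3.02 on chow and Relb at 2.25 on the HFS diet.

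The gene whose log2 CPM followed each of the 10 most closely over the 11 libraries was looked up among 11130 genes with a mean of at least 1 CPM. Pearson's r was 0.94 for Relb with Hacd2, 0.95 for Birc3 with Mindy3, 0.92 for Tnfaip3 with Rad51b, 0.96 for Nfkbia with Hsd17b6 and 0.96 for Rela with Setd1b. For the others it was 0.96 for Nfkb1 with Drosha, 0.95 for Nfkb2 with Diaph2, 0.93 for Rel with 5830448L01Rik, 0.96 for Nfkbib with Stap2 and 0.92 for Nfkbie with Rxrg. These are the highest values among many genes and the points share libraries, groups and depth, so they are given as a description. Among the 10 genes themselves, r over the 45 pairs ran from -0.63 to 0.72, with 1 pair above 0.7.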

How the data were processed

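RNA of isolated hepatocytes was sequenced in 11 libraries. The authors deposited whole-number counts per Ensembl gene, neither normalized nor filtered. The study's methods name a stranded mRNA kit, kallisto and tximport, while the labels name a total RNA kit and the submitters' processing notes list cutadapt 1.13, STAR, HTSeq 0.6.1p1, DESeq2 and the mm10 build; which route made the files, and whether counting used strand, is not given in the sources used here. Of 54232 identifiers, 54165 were found in GENCODE M21, which gave symbols, positions and exon lengths. Groups came from the sample labels. Counting intervals are not given, since libraries of the same group differed by more (chi-square per degree of freedom 25.4 to 91.5 between pairs).

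TMM factors and CPM were computed with edgeR 4.0.16 (R 4.3.3). Of all genes, 13303 passed filterByExpr with a minimum count of 10, and edgeR's quasi-likelihood test was run on 1 factor with 4 levels over the 11 libraries, leaving 7 residual degrees of freedom. Contrasts gave both genotype effects, both diet effects, their averages and the interaction, with Benjamini-Hochberg adjustment over all genes and a threshold of 0.05. Standard errors are the log2 fold change over the root of F. DESeq2 1.42.0, RLE factors, library totals, other filters, only the compared groups, replicate blocks and each library left out were alternatives, and leaving out the 2 libraries highest in macrophage markers was added after the data were seen. In simulated counts 200 genes were changed by 1 or 2 on the log2 scale, in equal numbers. The genotype effect averaged over diets was called with the right sign for 165, that on chow for 126 and that on the HFS diet for 149, with 4, 8 and 8 false calls among 12945 genes. Of the genes changed by 1, 74, 42 and 64 were called in the same order, and of those changed by 2, 91, 84 and 85. In each pathway list the 3 genes with the smallest p in each genotype comparison and all genes past the threshold were eligible to be named, apart from an item that is not reported here. The 10 genes, the lists and the tests were chosen with earlier results of these data known. Promoter sequences are RefSeq's, on GRCm38.p6. Sequencing reads and other assays of the study were not analysed here.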

Additional observations from a re-analysis of the deposited data

How the results depend on the processing

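Relb on the HFS diet and averaged over diets stayed past the threshold with the same direction in every alternative run (20 and 19). Library totals in place of TMM moved the median log2 fold change of all genes by 0.33 on chow, 0.26 on the HFS diet and 0.29 averaged over diets, and the share of calls that were higher in Xbp1 LKO from 36.4 to 89.5%, from 47.2 to 86.9% and from 44.2 to 91.4%. With them 4 of the 10 genes were called on chow (Relb, Rela, Nfkb2, Nfkb1), 2 on the HFS diet (Relb, Tnfaip3) and 5 averaged over diets (Relb, Tnfaip3, Rela, Nfkb2, Nfkb1). On chow 0 were called when only the compared groups were fitted (adjusted p of Birc3 0.073), 0 without the 2 libraries highest in macrophage markers (0.075), and 0 to 1 when each library was left out in turn. Averaged over diets 1 was called without those 2 libraries and 1 to 3 with each library left out, 1 being without chow-fed Xbp1 LKO library 2 (adjusted p of Birc3 0.060); Nfkbia was also called by DESeq2 (adjusted p 0.0496) and Nfkb2 with no filter on low counts (0.023). In Xbp1 LKO hepatocytes the diet called 1 gene, Tnfaip3, with no filter on low counts. For the losses and gains under other scalings and filters the cause was not tested.

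Alternative values were counted for every member in the genotype comparisons on each diet, and for chosen members in the other comparisons. Of these 710 values, 671 kept direction and side of the threshold, 9 lost and 10 gained a call, and 20 turned sign, none of them for a called gene. Values outside this count turned sign as well. Averaged over diets Rel ran from -0.29 to 0.11, and between diets in Xbp1 fl/fl hepatocytes Nfkbie ran from -0.50 to 0.42. On chow, Nfkbie turned to 0.17 under library totals, 0.45 without the 2 macrophage-rich libraries and ran from -0.48 to 0.44 over single libraries left out; Tnfaip3 turned to 0.18 and 0.030 and ran from -0.33 to 0.029; Nfkb1 ran from -0.023 to 0.19. On the HFS diet library totals turned Nfkb1 to 0.13, Nfkbia to 0.059, Nfkbib to 0.13 and Nfkbie to 0.21, and over single libraries left out Rel ran from -0.064 to 0.29, Rela from -0.027 to 0.056 and Nfkbie from -0.25 to 0.078. Library totals also turned Irak1, averaged over diets, to 0.0125.

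The number of calls over all genes also varied between settings. It was lowest on chow and averaged over diets without chow-fed Xbp1 LKO library 2. Without the other chow-fed Xbp1 LKO library it was above the reported number in both comparisons. Either fit leaves a lone library in that group, so their counts are left out of the ranges. In the other settings the number was 233 to 3000 on chow (632 as reported) and 184 to 1483 on the HFS diet (543). Averaged over diets it was 1010 to 5802 (1582). For diet it was 6 to 499 in Xbp1 fl/fl (57) and 0 to 722 in Xbp1 LKO (8). It was 58 to 1003 for diet averaged over genotypes (146) and 0 to 269 for the interaction (0).

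Same-numbered libraries are different mice, and their deviations from the group means correlated with r from -0.32 to 0.28 (mean -0.03), so the numbers were not used as pairs. With the numbers entered as a replicate block, the count of called genes stayed at 1 on chow, 1 on the HFS diet and 2 averaged over diets, and 0 in the other comparisons, also with the other numbering of the chow-fed Xbp1 LKO libraries. Leaving out a chow-fed Xbp1 LKO library leaves 1 in that group, assumed to vary like the other groups. Relb and Nfkbie, with the lowest counts, had the widest standard errors, and smaller differences in them are not detectable at this depth.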

Other observations

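Genes that many stresses switch on at once were read from a list of 14 immediate early genes, of which 12 could be tested. Atf3, a transcription factor of the stress response, rose in Xbp1 LKO hepatocytes on both diets. It was at 0.50, 1.21 and 0.95 CPM in chow-fed Xbp1 fl/fl and 6.53 and 43.0 CPM in chow-fed Xbp1 LKO libraries (log2 fold change 4.80 ± 0.72 SE, adjusted p = 0.0052), and at 0.95, 0.61 and 0.69 CPM and 6.72, 3.24 and 9.43 CPM on the HFS diet (3.09 ± 0.69 SE, adjusted p = 0.030), by edgeR's quasi-likelihood test. Every Xbp1 LKO library lay above every control, and 7.53% of all genes were apart by genotype in either direction. The chow call of Atf3 held in 20 of 20 alternative settings. Its log2 fold changes there ran from 2.87, without Xbp1 LKO library 2 (43.0 CPM), to 5.6, without Xbp1 LKO library 1. The HFS call held in 14 of 20. It was lost without any of the 3 Xbp1 fl/fl libraries, without Xbp1 LKO library 1 or 3, and without the 2 libraries highest in macrophage markers (adjusted p up to 0.117). Klf6, another transcription factor of the list, rose on the HFS diet from 3.76, 2.95 and 4.26 CPM to 9.90, 8.11 and 7.59 CPM (1.22 ± 0.18 SE, adjusted p = 0.0046, held in 20 of 20 settings). On chow Klf6 was at 6.23, 5.78 and 4.88 CPM against 8.45 and 9.39 CPM (0.66 ± 0.20 SE, adjusted p = 0.082). The classical members Fos (-0.64 ± 0.28 SE, adjusted p = 0.182 averaged over diets), Ier2 (-0.84 ± 0.26 SE, adjusted p = 0.100 on the HFS diet) and Dusp1 (0.71 ± 0.35 SE, adjusted p = 0.292 on chow) did not pass. The list as a whole had a median log2 fold change of 0.22 on chow and -0.20 on the HFS diet, beside 0.00 and 0.01 over all genes tested.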
